A study of Mus musculus with 8 samples.

Results

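Potassium channel genes were read out in the colon of mice whose colitis was set off by DSS (dextran sulfate sodium), which damages the lining of the gut. Members were all rows of the deposited table whose symbol starts with Kcn, followed by letters and a digit, which gave 90 of 18262 listed genes. They comprise 38 voltage-gated, 14 inward rectifier, 14 tandem pore domain and 8 calcium- or sodium-activated pore subunit genes, and 16 genes of auxiliary subunits (Kcnab, Kcne, Kcnip and Kcnmb). The DSS group holds 4 libraries of wild-type mice given DSS. The DSS + GAA group holds 4 libraries of wild-type mice given DSS together with ganoderic acid A (GAA), a fungal triterpenoid, at 20 mg/kg. The treatment labels of those 4 libraries read 20, 21, 22 and 23 mg/kg, while their titles and the design text give 20 mg/kg. Both groups carry DSS, and mice without colitis were not analysed here. The sources used here give no strain, sex or age, and do not tie each library to its own mouse. The p-values therefore measure only spread between samples, which may be technical.

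A potassium channel lets potassium leave or enter a cell and so sets its membrane voltage. In colonocytes, basolateral potassium channels return the potassium that the sodium pump takes up, and the voltage they hold drives chloride secretion and sodium uptake. In enteric neurons such channels end action potentials and set firing, and in muscle and pericytes they hold the membrane near rest and limit contraction. Each member was placed in 1 class from general knowledge: 9 epithelial, 29 nerve and glia, 13 muscle and stroma, 4 immune, 2 shared between muscle, nerve and epithelium, and 33 others. Earlier results of these data were known when the classes were set, so the grouping may not be independent of the data. The classes name the cells best known for a gene, and several members are made by more than 1 cell type.

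Levels are given as TPM, a length-scaled share of all transcripts that keeps no record of sequencing depth, so the depth behind each value is unknown. Markers of colonic epithelium were abundant, with the absorptive list summing to 10292 to 13146 TPM with DSS alone and to 16722 to 17611 TPM with GAA added. The 14217 genes tested had a median log2 difference of -0.25, so changes are read against that shift. Within DSS + GAA, replicate 4 or 5 was the lowest library for 38 of the 46 tested members. Replicate ranks were not counted over all genes. Replicate 1 was the highest library of the group for 35 of the 46 and the lowest for 7. It was the highest library of its group for 17 of 17 tested nerve and glia genes and 9 of 9 tested muscle and stroma genes, and the lowest for 5 of 7 tested epithelial genes.

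Most potassium channel genes that could be tested were lower with GAA, and the lower ones were mainly channels of nerve, muscle and stroma. Of the 90 members, 46 passed the filter of at least 1 TPM in at least 4 libraries. Of these, 33 passed the test (limma on log2(TPM + 1), Benjamini-Hochberg adjusted p under 0.05 over all tested genes), against 34.1% of all tested genes. The 33 split into 31 lower and 2 higher, where 28.2% of all tested genes were lower and 5.96% higher. The groups did not overlap for 27 members with DSS above and for 2 with DSS + GAA above, against 27.6% and 5.31% of all tested genes. The members' median log2 fold change was -0.76. Of the 46, 7 reached the filter through DSS libraries alone, so their difference was partly set by the filter. With no filter, 44 of 90 members were lower and 2 higher, against 23.5% and 4.50% of all genes.

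The counts of lower and higher members depended on scaling and on which libraries were used. After trimmed mean scaling 21 members were lower and 3 higher, after quantile normalization 16 and 3, and after median centring 11 and 4. Over all genes the lower share then was 11.6%, 11.3% and 9.20%, and the higher share 13.3%, 11.8% and 15.2%. Without DSS replicate 1, 13 of the 39 members then tested were lower and 1 higher, and 12.01% of all genes were lower. The members' median log2 fold change was -0.67 in that fit. Without DSS replicate 5, 19 of 39 were lower (23.3% of all genes), and without DSS replicate 4, 20 of 39 (19.1%). In bulk tissue, fewer cells of a type and less RNA per cell cannot be told apart.

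**Figure D1:**
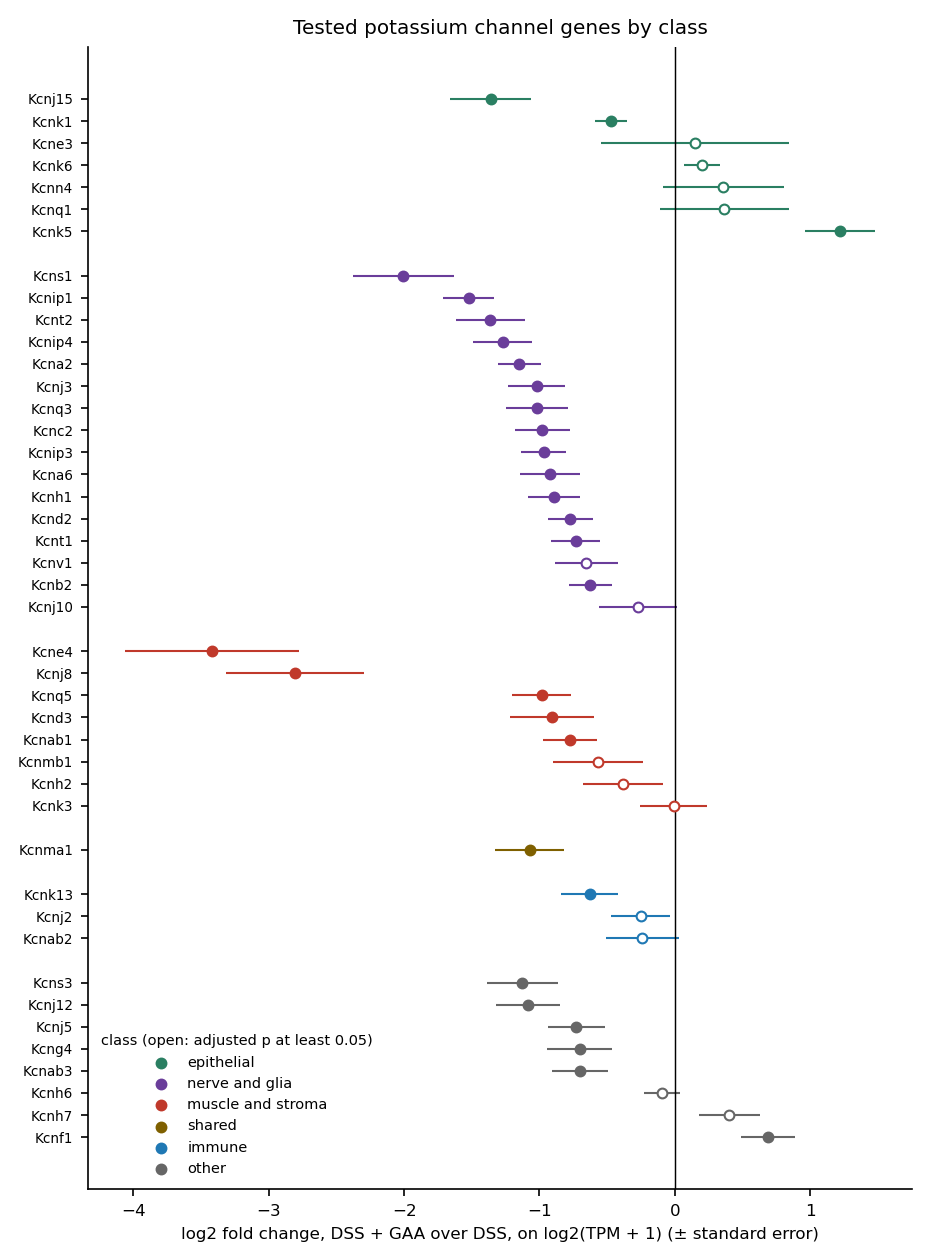
Log2 fold change of DSS + GAA over DSS on the log2(TPM + 1) scale (horizontal axis) for 43 of the 46 tested potassium channel genes, grouped by class; bars are standard errors, and filled points have a limma adjusted p under 0.05. All nerve and glia genes shown lie left of 0, while the 7 epithelial genes lie on both sides, from -1.36 to 1.22.

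Of the 9 members of the epithelial class, 7 were tested. Kcnk5 was higher, Kcnk1 and Kcnj15 were lower, and Kcne3, Kcnk6, Kcnn4 and Kcnq1 did not pass. The 2 lower of 7 are 28.6%, near the 28.2% of all tested genes. The median of the 7 was 0.20.

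Kcnk5 encodes TASK-2, a pH-sensitive tandem pore channel of transporting epithelia. It read 16.6, 12.4, 22.4 and 17.7 TPM in DSS replicates 1, 2, 4 and 5 and 25.5, 38.0, 50.6 and 55.8 TPM in the same numbers of DSS + GAA. All 4 DSS + GAA libraries lay above all DSS libraries. The mean rose from 17.3 ± 4.13 to 42.5 ± 13.5 TPM (SD, n = 4 per group; log2 fold change 1.22 ± 0.26, SE; limma adjusted p = 0.00978; two-sided exact permutation p = 0.0286, the smallest that 70 assignments allow). It passed in the same direction under all 18 alternatives run. Per 1000 TPM of summed absorptive epithelium markers, Kcnk5 stood at 1.08 to 1.71 TPM with DSS alone and 1.49 to 3.34 TPM with GAA, which overlap.

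Kcnk1 encodes TWIK-1, another tandem pore channel. It read 96.7, 129, 104 and 109 TPM with DSS and 80.9, 76.6, 81.1 and 74.2 TPM with GAA. The groups did not overlap, and the mean fell from 109 ± 13.9 to 78.2 ± 3.41 TPM (log2 fold change -0.47 ± 0.12, limma adjusted p = 0.0157). The call was lost under trimmed mean scaling (-0.20, limma adjusted p = 0.311), quantile normalization (-0.39, 0.0574) and median centring (-0.17, 0.397), and without DSS + GAA replicate 2 (0.0508). Per 1000 TPM of absorptive epithelium markers, Kcnk1 stood at 7.88 to 11.2 TPM with DSS alone and 4.35 to 4.83 TPM with GAA, with no overlap.

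Kcnj15, which encodes the inward rectifier Kir4.2, was scarce. It read 5.07, 2.00, 1.70 and 1.00 TPM with DSS and 0.242, 0.314, 0.258 and 0.104 TPM with GAA, and reached the filter through the DSS libraries alone. The groups did not overlap, and DSS replicate 1 carried the highest value. The log2 fold change came to -1.36 ± 0.30 (limma adjusted p = 0.0111). Of 6 neutrophil markers 5 were lower, with sums of 2073 to 6402 against 137 to 377 TPM, and none was listed at 0 throughout. Retnlg, of that list, read 604, 327, 196 and 127 TPM in DSS replicates 1, 2, 4 and 5. Retnlg and Mmp8 had the same order as Kcnj15 over the DSS libraries, while S100a8, S100a9, Csf3r and Cxcr2 did not. S100a8 and S100a9 were highest in DSS replicate 5 (2933 and 3306 TPM), where Kcnj15 was lowest. The part of these markers in the fall of Kcnj15 was not tested.

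Kcnk6, the TWIK-2 gene, stayed between 26.7 and 41.1 TPM in all 8 libraries, with overlapping groups (0.20 ± 0.13, limma adjusted p = 0.258). It passed as higher after trimmed mean scaling (0.47, limma adjusted p = 0.0215), quantile normalization (0.40, 0.0444) and median centring (0.50, 0.0181).

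Kcnq1 and Kcne3 encode the pore and the auxiliary subunit of the basolateral crypt channel that cyclic AMP-driven chloride secretion uses. Kcne3 read 94.7, 73.6, 93.1 and 95.4 TPM with DSS and 17.6, 104, 196 and 253 TPM with GAA. Kcnq1 read 5.35, 4.71, 5.48 and 5.71 TPM with DSS and 1.69, 7.44, 10.5 and 15.8 TPM with GAA. For both genes, DSS + GAA replicate 1 lay below all DSS libraries and the other 3 lay above them. Neither passed (Kcne3, 0.15 ± 0.69, limma adjusted p = 0.882; Kcnq1, 0.37 ± 0.48, limma adjusted p = 0.576). Without DSS + GAA replicate 1 both passed as higher, at 0.95 (limma adjusted p = 0.0207) for Kcne3 and 0.90 (limma adjusted p = 0.0115) for Kcnq1. Without replicate 4 or 5 of that group, the sign for Kcne3 turned (-0.18 and -0.30). The ratio of Kcne3 to Kcnq1 TPM ran from 15.6 to 17.7 in DSS and from 10.4 to 18.7 in DSS + GAA, lowest in replicate 1. The authors' deposited table lists both as higher, with a log2 fold change of 0.68 (false discovery rate 0.00818) for Kcne3 and 0.73 (0.00509) for Kcnq1. Kcnq1 shares 121 exon bases with Kcnq1ot1 on the opposite strand, and the labels do not say whether strand was kept.

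Kcnn4 encodes KCa3.1, the calcium-activated channel of colonic crypts and of lymphocytes and macrophages. It read 12.4, 10.0, 11.4 and 3.70 TPM with DSS and 5.07, 9.21, 17.8 and 19.0 TPM with GAA. The groups overlapped, and it did not pass (0.36 ± 0.45, limma adjusted p = 0.558).

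The other 2 epithelial members were not tested. Kcne2, an auxiliary subunit gene best known in gastric parietal cells, read 0.292 to 0.800 TPM with DSS and was listed at 0 in all 4 DSS + GAA libraries. Kcnj13, the Kir7.1 gene, stayed between 0.0640 and 0.658 TPM.

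**Figure D2:**
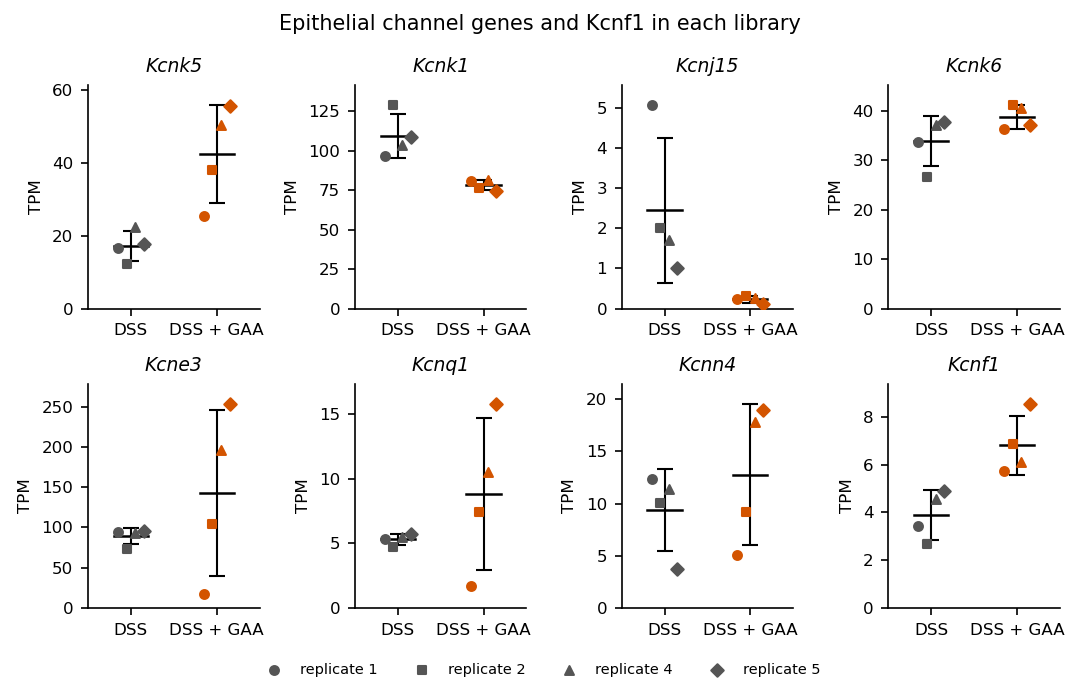
TPM in each library (points, with a symbol for each replicate number), group mean (horizontal line) and SD (bars) for the 7 tested epithelial genes and Kcnf1, in 4 DSS and 4 DSS + GAA libraries. Kcnk5 and Kcnf1 are higher in all 4 DSS + GAA libraries, while Kcne3 and Kcnq1 are lowest in DSS + GAA replicate 1 and higher than DSS in the other 3.

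Kcnf1 was the other gene that rose. It encodes an electrically silent subunit that forms no channel alone and modifies Kv2 channels. It read 3.44, 2.66, 4.56 and 4.90 TPM with DSS and 5.74, 6.86, 6.13 and 8.54 TPM with GAA, with no overlap. The mean went from 3.89 ± 1.03 to 6.82 ± 1.24 TPM (log2 fold change 0.69 ± 0.20, limma adjusted p = 0.0276). The call was lost without DSS replicate 1 or 2 (limma adjusted p = 0.0831 and 0.0555) and without DSS + GAA replicate 2 or 5 (0.0720 and 0.0665).

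On the log2(TPM + 1) scale the largest falls belonged to Kcne4 and Kcnj8, both in the muscle and stroma class. By the ratio of the means, the scarcer genes Kcnj15 (10.7-fold lower) and Kcns1 (10.1-fold lower) lay between them. Kcnj8 encodes Kir6.1, the pore of the ATP-sensitive potassium channel of smooth muscle and pericytes. It read 263, 140.4, 159 and 84.3 TPM with DSS and 49.8, 28.9, 11.8 and 9.91 TPM with GAA. The highest DSS + GAA library lay below the lowest DSS library. The mean went from 162 ± 74.8 to 25.1 ± 18.6 TPM, 6.44-fold lower (log2 fold change -2.81 ± 0.51, limma adjusted p = 0.00664). Kcne4 encodes an auxiliary subunit that inhibits several voltage-gated channels. It read 250.3, 109, 94.7 and 38.8 TPM with DSS and 21.3, 14.0, 4.69 and 3.22 TPM with GAA, again with no overlap. Its mean went from 123 ± 89.97 to 10.8 ± 8.46 TPM, 11.4-fold lower (-3.42 ± 0.64, limma adjusted p = 0.00720). For both genes DSS replicate 1 was highest and DSS replicate 5 lowest of its group, and both kept their call under all 18 alternatives.

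The partner of Kir6.1 moved the same way. Abcc9, the gene of the sulfonylurea receptor SUR2 that surrounds the Kir6.1 pore, went from 134 ± 49.96 to 27.2 ± 15.3 TPM (-2.34 ± 0.39, limma adjusted p = 0.00573). Abcc9 lies 16247 bases from Kcnj8 on chromosome 6, on the same strand. The ratio of Kcnj8 to Abcc9 TPM was 1.02 to 1.30 with DSS alone and 0.643 to 1.04 with GAA. Abcc8, which encodes the receptor SUR1 of beta cells and neurons, did not pass, at 1.53 ± 0.448 and 1.56 ± 0.440 TPM (0.02 ± 0.18, limma adjusted p = 0.939).

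Markers of vessels and stroma were read beside these genes. All 6 mural and endothelial markers were lower, with overlapping sums of 299 to 475 TPM and 107 to 311 TPM. That count was 2 of 6 after trimmed mean scaling or median centring and 3 after quantile normalization. It was 1 of 5 tested without DSS replicate 1, 3 of 5 without DSS replicate 2, 2 of 5 without DSS replicate 4, and 2 of 6 without DSS + GAA replicate 2, 4 or 5. Of 6 fibroblast markers 2 were lower, or 5 without DSS + GAA replicate 1 and 1 without DSS replicate 1, with sums of 1440.1 to 4363 against 342 to 1232 TPM. No marker of either list was listed at 0 throughout. Per 1000 TPM of mural and endothelial markers, Kcnj8 stood at 225 to 555 TPM with DSS alone and 90.3 to 160.4 TPM with GAA. Per 1000 TPM of fibroblast markers, Kcne4 stood at 26.9 to 57.4 TPM and 9.41 to 18.4 TPM. Neither pair of ranges overlapped. The part of these markers in the falls of Kcnj8 and Kcne4 was not tested.

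Promoter sequence is shown for the 2 genes that rose and the 2 that fell most on the log2(TPM + 1) scale, the ends of the plot of fold changes. The bases come from RefSeq (GRCm38.p6), end before the first transcribed base of GENCODE vM21, and are written 5′ to 3′ on the gene's strand. Capitals mark matches, on either strand, to 5 motifs: AGGTCA (the core that ROR receptors bind), the E-box CACGTG, the CCAAT box, the GC box GGGCGG, and the TATA box TATAAA.
Kcne4, chr1:78816661-78816757, plus strand: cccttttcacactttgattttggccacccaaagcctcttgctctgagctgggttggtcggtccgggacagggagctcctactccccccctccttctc
Kcnj8, chr6:142571615-142571864, minus strand: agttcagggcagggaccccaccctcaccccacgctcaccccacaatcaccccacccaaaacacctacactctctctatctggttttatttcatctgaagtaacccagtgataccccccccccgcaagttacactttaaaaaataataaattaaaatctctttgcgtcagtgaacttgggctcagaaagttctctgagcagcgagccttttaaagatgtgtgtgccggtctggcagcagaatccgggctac
Kcnk5, chr14:20181810-20182032, minus strand: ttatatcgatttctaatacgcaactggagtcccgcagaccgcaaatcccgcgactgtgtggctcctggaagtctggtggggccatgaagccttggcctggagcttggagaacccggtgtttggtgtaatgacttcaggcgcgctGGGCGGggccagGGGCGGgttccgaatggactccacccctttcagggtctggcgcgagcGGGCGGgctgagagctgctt
Kcnf1, chr12:17176889-17177138, minus strand: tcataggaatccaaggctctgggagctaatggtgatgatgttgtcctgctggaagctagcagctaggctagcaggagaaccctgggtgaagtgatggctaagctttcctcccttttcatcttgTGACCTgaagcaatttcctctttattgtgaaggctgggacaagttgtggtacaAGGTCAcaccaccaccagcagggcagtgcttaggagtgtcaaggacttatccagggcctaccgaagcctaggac

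The Kcnf1 stretch holds AGGTCA once on each strand, and the Kcnk5 stretch holds the GC box 3 times. The Kcne4 and Kcnj8 stretches hold none of the 5 motifs, but the Kcne4 stretch is 97 bases long after 153 transcribed bases were left out, and its whole window of 250 bases holds the E-box. In windows of 250 bases before the RefSeq start, AGGTCA was present in 14.0% of 32851 windows of all genes and in 5.56% of the 90 windows of the 65 members with an entry. The GC box was present in 32.7% of all windows and in 45.6% of the members' windows. Of the 33 genes that changed, 26 had an entry, and AGGTCA was present for Kcnf1, Kcnh1 and Kcnip4. A match is a description of letters and says nothing of binding.

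Of the 13 members of the muscle and stroma class, 9 were tested, and 6 were lower and 0 higher. The lower ones are 66.7% of the 9, against 28.2% of all tested genes. The lower count was 2 after median centring and 3 without DSS replicate 1, where 9.20% and 12.01% of all tested genes were lower. Kcnq5, which encodes an M-type channel of smooth muscle and nerve, went from 3.01 ± 0.495 to 1.08 ± 0.616 TPM (-0.98 ± 0.22, limma adjusted p = 0.0116). Kcnd3, the Kv4.3 gene, read 9.09 to 17.9 TPM with DSS and 4.38 to 11.8 TPM with GAA, and its call (-0.91 ± 0.31, limma adjusted p = 0.0488) was lost under 13 of 18 alternatives. Kcnab1, which encodes a beta subunit of Kv1 channels, went from 2.60 ± 0.601 to 1.12 ± 0.488 TPM (limma adjusted p = 0.0181) and lost its call under the 3 other scalings and without DSS replicate 1. Kcnh2 and Kcnk3 did not pass (limma adjusted p = 0.333 and 0.982).

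The large-conductance BK channel of muscle is made of the pore gene Kcnma1 and the beta subunit gene Kcnmb1. Kcnma1, also made by nerve and epithelium, read 12.2, 7.66, 8.87 and 12.2 TPM with DSS and 6.74, 5.02, 3.27 and 2.83 TPM with GAA, with no overlap (-1.07 ± 0.25, limma adjusted p = 0.0140). Its call was lost under quantile normalization (limma adjusted p = 0.0558), median centring (0.0547) and without DSS replicate 1 (0.0531). Kcnmb1 read 22.9, 9.74, 19.3 and 17.1 TPM with DSS and 18.9, 12.9, 7.33 and 7.56 TPM with GAA, with overlap, and did not pass (-0.57 ± 0.33, limma adjusted p = 0.209). With array quality weights Kcnmb1 passed as lower (limma adjusted p = 0.0391). Whether these subunit genes differed in their change was not tested. Of 10 smooth muscle markers 1 was lower, or 0 to 2 over the libraries left out, with sums of 2104 to 5537 against 1666 to 4016 TPM. Per 1000 TPM of these markers, Kcnma1 stood at 2.20 to 3.67 TPM with DSS alone and 1.46 to 1.97 TPM with GAA, and Kcnmb1 at 3.10 to 6.89 and 3.89 to 4.69 TPM. Lrrc26, the gene of a BK gamma subunit of secretory epithelium, was higher (15.4 ± 7.21 against 29.8 ± 3.97 TPM, limma adjusted p = 0.0236), with overlapping groups. That call was lost in 5 of the 8 fits that leave out a library (DSS replicates 1 and 4, and replicates 2, 4 and 5 of DSS + GAA).

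**Figure D3:**
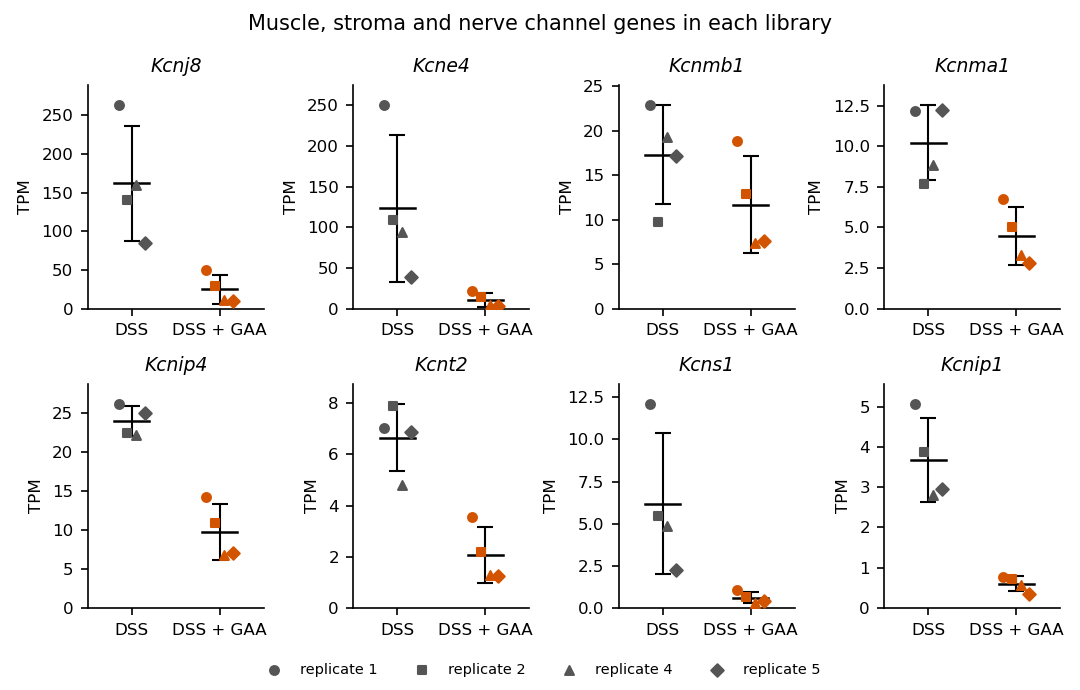
TPM in each library (points, with a symbol for each replicate number), group mean (horizontal line) and SD (bars) for 4 muscle, stroma or shared genes and 4 nerve genes, in 4 DSS and 4 DSS + GAA libraries. All but Kcnmb1 are lower in every DSS + GAA library than in any DSS library.

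Channels of nerve and glia fell together. Of 29 members, 17 were tested, and 15 were lower, 0 higher and 2 without a call. The lower ones are 88.2% of the 17, against 28.2% of all tested genes. The median log2 fold change of the class was -0.97. For 15 of the 17 genes the groups did not overlap, with DSS above. Of the 17, 5 (Kcnd2, Kcnh1, Kcnip1, Kcnip3 and Kcnt1) reached the filter through DSS libraries alone, so their calls were partly set by the filter, and with no filter 21 of 29 were lower. Under other scalings 14 (trimmed mean), 10 (quantile) and 8 (median) were lower. Without any 1 of the DSS libraries 12 genes of the class passed the filter, of which 7 were lower without DSS replicate 1 and 10 without replicate 2, 4 or 5.

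Among pore subunits, Kcnt2, the gene of a sodium-activated channel, read 7.02, 7.89, 4.79 and 6.88 TPM with DSS and 3.55, 2.18, 1.28 and 1.26 TPM with GAA, with no overlap (-1.36 ± 0.25, limma adjusted p = 0.00716). Kcna2, a Kv1 gene of axons, went from 3.34 ± 0.507 to 0.964 ± 0.276 TPM (-1.15 ± 0.16, limma adjusted p = 0.00510). Kcnq3, which encodes a subunit of the neuronal M channel that damps repeated firing, went from 4.16 ± 0.421 to 1.64 ± 0.879 TPM (limma adjusted p = 0.0117) and lost its call under median centring. Kcnj3, which encodes a subunit of the G protein-gated channel GIRK, went from 2.92 ± 0.212 to 0.995 ± 0.630 TPM (limma adjusted p = 0.00929). Its partner subunit gene Kcnj5, placed with the other genes, went from 2.18 ± 0.287 to 0.973 ± 0.540 TPM (limma adjusted p = 0.0267) and lost its call under 8 of 17 alternatives. Kcna6, Kcnb2, Kcnc2, Kcnd2, Kcnh1 and Kcnt1 were also lower, with log2 fold changes from -0.98 for Kcnc2 to -0.63 for Kcnb2.

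Kcns1, an electrically silent subunit gene like Kcnf1, had the largest fall of the class. It read 12.1, 5.46, 4.88 and 2.28 TPM with DSS and 1.07, 0.676, 0.301 and 0.394 TPM with GAA (-2.01 ± 0.37, limma adjusted p = 0.00707). The groups did not overlap, and DSS replicate 1 was highest and DSS replicate 5 lowest of the DSS libraries, the same libraries as for Kcnj8 and Kcne4. The related gene Kcns3, placed with the others, went from 5.28 ± 0.744 to 2.02 ± 1.18 TPM (-1.13 ± 0.26, limma adjusted p = 0.0136).

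The KChIP proteins are calcium sensors that bind Kv4 channels. Kcnip4 was the most abundant gene of the class and read 26.1, 22.5, 22.2 and 25.0 TPM with DSS and 14.3, 10.8, 6.79 and 7.01 TPM with GAA (-1.27 ± 0.22, limma adjusted p = 0.00611). Kcnip1 read 5.06, 3.88, 2.80 and 2.95 TPM with DSS and 0.767, 0.729, 0.576 and 0.349 TPM with GAA, a 6.07-fold lower mean (-1.52 ± 0.19, limma adjusted p = 0.00460). Neither gene's groups overlapped. Kcnip3 went from 2.00 ± 0.378 to 0.536 ± 0.250 TPM (limma adjusted p = 0.00604). Kcnip4 kept its call under all 18 alternatives, while Kcnip1 and Kcnip3 were tested through the DSS libraries alone. Dpp6, the gene of another Kv4 partner, went from 6.78 ± 0.929 to 2.23 ± 1.23 TPM (limma adjusted p = 0.00769).

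The 2 tested genes of the class without a call were Kcnj10 and Kcnv1. Kcnj10, which encodes Kir4.1 of glia, read 5.60, 3.91, 2.05 and 1.54 TPM with GAA, around the DSS range of 3.35 to 4.09 TPM (-0.27 ± 0.29, limma adjusted p = 0.484). Kcnv1, a silent subunit gene, stood at 2.18 ± 0.104 and 1.12 ± 0.767 TPM (-0.65 ± 0.23, limma adjusted p = 0.0568).

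Most neuron and glia markers fell with these channels. All 12 enteric neuron markers were lower, their sum going from 1000.1 to 1845 to 194 to 564 TPM. Of 5 tested glia markers 4 were lower, or 2 after median centring and 2 without DSS replicate 1, with sums of 56.2 to 83.1 against 15.1 to 43.3 TPM. The 29 nerve and glia channel genes summed to 81.8 ± 10.5 TPM with DSS alone and 30.8 ± 13.3 TPM with GAA. Per 1000 TPM of neuron markers, that sum stood at 51.4 to 79.5 TPM with DSS alone and at 86.3 to 106 TPM with GAA, higher in every DSS + GAA library. Leaving the abundant neuropeptide gene Vip out of the marker sum, the ranges were 138 to 180.3 and 175 to 203 TPM and overlapped. The part of the marker changes in the fall of the channel genes was not tested. Of 18 tested genes of voltage-gated sodium and calcium channels and their relatives, 13 were lower and 0 higher. Of all tested genes, 28.2% were lower and 5.96% higher. Among the 13, Cacna1c, the L-type calcium channel gene of muscle, went from 13.8 ± 2.03 to 4.41 ± 1.58 TPM, and Scn9a, a sodium channel gene of neurons, from 2.20 ± 0.172 to 0.696 ± 0.115 TPM (limma adjusted p = 0.00510 for each).

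**Figure D4:**
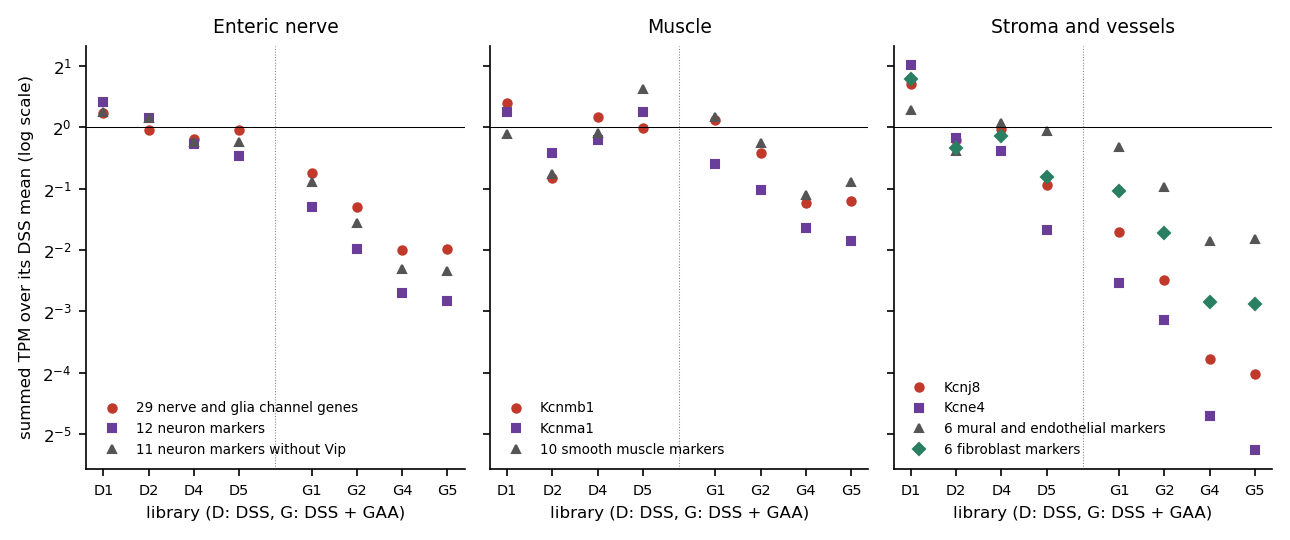
Summed TPM in each library divided by its mean over the 4 DSS libraries (log scale, so 1 is the DSS mean) for channel genes and marker lists of enteric nerve, muscle, and stroma and vessels. Nerve channels and neuron markers are lower in all 4 DSS + GAA libraries than in any DSS library.

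The immune class gave 1 lower gene among 3 tested, which is 33.3% and near the 28.2% of all tested genes. Kcnk13, which encodes the tandem pore channel THIK-1 of macrophages and microglia, went from 1.81 ± 0.408 to 0.850 ± 0.478 TPM (-0.63 ± 0.21, limma adjusted p = 0.0455). Its groups overlapped, and the call was lost under 10 of 17 alternatives. Kcnj2, the Kir2.1 gene, and Kcnab2, a beta subunit gene of leukocytes and nerve, did not pass (limma adjusted p = 0.386 and 0.519). Kcna3, the Kv1.3 gene of T cells, was at most 0.169 TPM in any library and was not tested, while 5 of 6 T cell markers were higher, their sum going from 21.1 to 39.3 to 58.5 to 138 TPM. Of 6 macrophage markers 1 was lower, or 4 without DSS + GAA replicate 1.

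Of the 33 other members, 8 were tested. Kcnab3, Kcng4, Kcnj5, Kcnj12 and Kcns3 were lower, Kcnf1 was higher, and Kcnh6 and Kcnh7 did not pass. The lower ones are 62.5% of the 8, against 28.2% of all tested genes. The 5 lower became 2 after trimmed mean scaling or quantile normalization, 0 after median centring, and 2 when DSS replicate 1, 4 or 5, or replicate 4 or 5 of DSS + GAA, was left out. It was 3 when replicate 2 of DSS + GAA was left out. Kcng4 lost its call under 9 of 17 alternatives and Kcnab3, tested through the DSS libraries alone, under 7 of 13. Kcnj12, an inward rectifier gene, went from 2.59 ± 0.327 to 0.766 ± 0.646 TPM (-1.08 ± 0.24, limma adjusted p = 0.0111). Kcnh7, an ERG channel gene, read 1.57 to 2.19 TPM with DSS and 1.65, 2.65, 3.99 and 4.05 TPM with GAA (0.40 ± 0.22, limma adjusted p = 0.189), and it passed as higher without DSS + GAA replicate 1 (0.60, limma adjusted p = 0.0262), after median centring (0.0462) and with array quality weights (0.0444). It shares 696 exon bases with Gca, a protein-coding gene on the opposite strand. In all, 12 of the 33 genes that changed share exon bases with a gene on the opposite strand, among them Kcna6 with 2355, Kcnj3 with 1621 and Kcnma1 with 1016 bases. Of all 90 members, 28 share exon bases with another gene on either strand. Whether reads of the 2 strands were kept apart is not known. The 44 untested members did not exceed 1.74 TPM in any library.

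The make-up of channel transcripts differed between the groups. The 90 genes summed to 993, 668, 704 and 588 TPM with DSS and 379, 421, 479.8 and 537 TPM with GAA, with no overlap. Without Kcnj8 and Kcne4 the sums ran over 418 to 479 TPM and 308 to 524 TPM, which overlap. Epithelial genes made up 26.7, 38.9, 39.2 and 46.1 percent of channel TPM with DSS and 44.2, 65.9, 82.8 and 84.8 percent with GAA, where replicate 1 lay within the DSS range. The summed TPM of the epithelial genes overlapped, at 259 to 276 TPM with DSS and 168 to 455 TPM with GAA. Kcne3, which did not pass, read 196 and 253 TPM of that sum in replicates 4 and 5 of DSS + GAA. Kcnj8 alone held 14.3 to 26.5 percent with DSS and 1.85 to 13.1 percent with GAA.

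**Figure D5:**
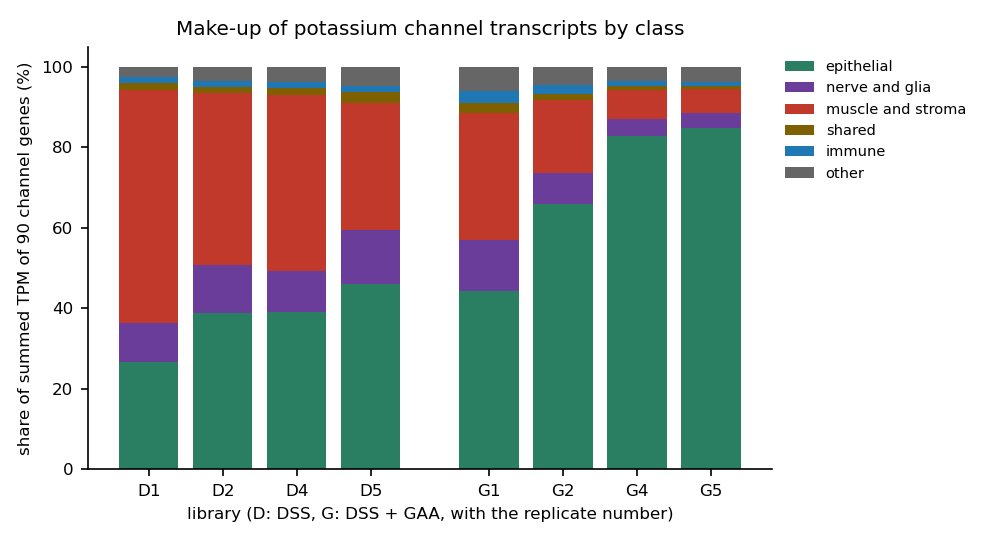
Share of the summed TPM of the 90 potassium channel genes held by each class (stacked bars, percent) in 4 DSS (D) and 4 DSS + GAA (G) libraries. Epithelial genes hold 26.7 to 46.1 percent in DSS and 44.2 to 84.8 percent in DSS + GAA, and the muscle and stroma share is smallest in replicates 4 and 5 of DSS + GAA.

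Other colonic ion transport genes were read beside the epithelial channels. Of 18 tested, 7 were higher and 1 was lower, against 5.96% and 28.2% of all tested genes, with a median of 0.67. The higher count was 4 without DSS replicate 1 or without DSS + GAA replicate 4. Scnn1a, Atp12a and Clcn2 had the smallest p among the higher genes. Clcn2, a chloride channel gene, went from 80.7 ± 15.2 to 129 ± 5.43 TPM (limma adjusted p = 0.00916). Atp1b3, a beta subunit gene of the sodium pump, went from 184 ± 26.2 to 104 ± 34.5 TPM (limma adjusted p = 0.0183). Its groups overlapped, and no gene of the list was lower after trimmed mean scaling or median centring, or without DSS replicate 1. Cftr and Slc12a2, which carry chloride in the secretion that Kcnq1 and Kcne3 support, did not pass (limma adjusted p = 0.591 and 0.270). Cftr read 0.676 TPM in DSS + GAA replicate 1 and 8.26 to 20.3 TPM in the other 3, around the DSS range of 8.43 to 16.5 TPM.

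The authors' deposited table gave 46 of the 90 members as lower and 7 as higher at a false discovery rate under 0.05, where 16.2% and 10.3% of all 18262 genes were called. Of the 31 genes lower here, 28 were lower there, and both genes higher here, Kcnk5 and Kcnf1, were higher there. Kcnk1 and Kcnd3 were among those without a call in the authors' deposited table. No member was called in opposite directions.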

How the data were processed

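The authors deposited 1 table of TPM values for 18262 genes in 8 libraries, with their own log2 fold change, p-value and false discovery rate per gene; no source says which test gave the deposited p-value columns. The submitters' processing notes name the build mm10 and, without versions or roles, GATK, SAMtools, edgeR, Subread, featureCounts, Bowtie2, HISAT2 and Trimmomatic. Per the labels' protocols, oligo(dT)-selected RNA was sequenced in paired ends.

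Genes with at least 1 TPM in at least 4 libraries (14217) were compared on log2(TPM + 1) with limma 3.58.1 in R 4.3.3 (group as the sole term, variance trend, robust empirical Bayes; two-sided, Benjamini-Hochberg over all tested genes, threshold 0.05). Fold changes on this scale understate those of low genes. Single genes were also compared by a two-sided exact permutation test over 70 assignments. On data simulated for this comparison, 61 of 100 genes changed by 1 and 86 of 100 changed by 2 (log2) were recovered, with 2 of 14017 unchanged genes called. The changed genes all had a mean log2(TPM + 1) above 2, and noise was drawn independently for each value. Changes in scarcer genes and shifts of a whole library were not simulated, so these rates need not hold for many of the members. Coordinates are from GENCODE vM21 (GRCm38), where all 90 members matched.

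Members, classes and lists were chosen with earlier results of these data known. Named genes are all that passed, the tested epithelial genes, the 4 most abundant tested genes of each other class, and up to 4 partner genes per list and direction. Others named were chosen after their values were seen, namely Kcna3, Kcnh2, Kcnh6, Kcnk3, Kcnk16, Kcnmb2, Kcnv1, Abcc8, Cftr and Slc12a2. The same holds for the neutrophil markers Csf3r, Cxcr2, Mmp8, Retnlg, S100a8 and S100a9. Alternatives were other pseudocounts (0.1 and 5), filters, scalings and fit settings, a replicate block, and leaving out each library. Ratios to marker sums were chosen after seeing the data. A few genes that the naming rule covers are not reported here. A count test was not run, since TPM are not counts.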

Additional observations from a re-analysis of the deposited data

Results flagged for a closer look

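Among 42 named genes, 84 groups of 4 libraries were checked, and 3 held a library far from the others by Dixon's test, where chance alone flags about 1 in 20 groups. Kcne3 read 73.6 TPM in DSS replicate 2, where the other 3 DSS libraries read 93.1 to 95.4 TPM. Kcng4, a silent subunit gene, read 1.202 TPM in DSS replicate 2, and the others 1.92 to 2.02 TPM. Kcnip3 read 0.907 TPM in DSS + GAA replicate 1, and the others 0.368 to 0.452 TPM.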

How the results depend on the processing

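Kcnk5, Kcne4, Kcnj8 and Kcnip4 kept direction and call under all 18 alternatives. At a filter of 5 TPM, which leaves 14 members tested, 6 were lower (1 epithelial, 1 nerve and glia, 3 muscle and stroma). Of all genes tested at that filter, 26.5% were lower. After trimmed mean scaling 3 members were higher (2 epithelial), and the lower counts were 21, with 1 epithelial, 14 nerve and glia and 3 muscle and stroma. After quantile normalization 3 were higher (2 epithelial) and 16 lower (1, 10 and 3), and after median centring 4 were higher (2 epithelial) and 11 lower (1, 8 and 2). With no filter, 44 were lower (3, 21 and 8), and with array quality weights 3 were higher (8.19% of all genes). Leaving out 1 library gave 1 to 5 members higher and 13 to 32 lower, 1 to 3 epithelial higher and 1 to 2 lower, 7 to 16 nerve and glia lower and 3 to 6 muscle and stroma lower; the lowest counts of lower members came without DSS replicate 1, and the highest counts of higher members without DSS + GAA replicate 1. The sign turned for Kcnab2 (0.23 and 0.0635), Kcnj10 (0.20 and 0.0288) and Kcnj2 (0.18 and 0.0492) after quantile normalization and median centring, and for Kcne3, which ran from -0.30 to 0.95 over the libraries left out, without DSS + GAA replicate 4 (-0.18) or 5. The cause was not tested. Deviations from the group mean gave r of 0.18, -0.11, 0.15 and -0.03 for same-numbered libraries. For differently numbered libraries r ran from -0.17 to 0.15. So few values cannot show or exclude a pairing, and no source used here names one. With the replicate number as a block, 29 members were lower (15 nerve and glia, 5 muscle and stroma) and 2 higher. Of all genes, 23.5% were lower and 4.78% higher in that fit. TPM keep no depth, so its effect on the scarce members is unknown.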

Other observations

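Of the 44 members too low to test here, the authors' deposited table calls 18 lower and 2 higher. Over all 18262 genes it calls 16.2% lower and 10.3% higher. The 2 higher members are given here. Kcnmb2, a BK beta subunit gene, read 0.167, 0.266, 0.0550 and 0 TPM in DSS and 0.411, 0.195, 0.208 and 0.263 TPM in DSS + GAA. Kcnk16, a tandem pore gene known from pancreas, read 0, 0, 0 and 0.105 TPM in DSS and 0.271, 0.0640, 0.0690 and 0 TPM in DSS + GAA.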
